A study of Mus musculus with 6 samples.

Results

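The genes described are the subunits of the mouse proteasome and of its immune form, the immunoproteasome. They were taken by gene name from a fixed list of 38 symbols, and all 38 were found among the 54532 genes of the deposited count table. By role the list holds 7 alpha and 4 non-catalytic beta subunits of the core, 3 constitutive and 3 inducible catalytic beta subunits, 6 ATPases and 11 non-ATPase subunits of the regulatory particle, and 4 subunits of other activators.

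RNA was sequenced in bulk from 6 libraries of RAW264.7, an established mouse macrophage-like line grown in DMEM with serum, and the design text asks which genes differ after ERMAP knockdown. The control group holds 3 libraries of genotype WT, with no shRNA tag. The other 3 libraries carry the genotype ERMAP Knockdown and the treatment shRNA. The protocol text mentions the ERMAP-shRNA lentivirus for all samples, so the labels do not settle whether the control cells received a virus, and they describe no non-targeting shRNA, clone or time after transduction. Nothing in the labels says that replicates were separate cultures, and a p-value here therefore reflects the spread among these libraries alone, possibly a technical one.

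Ermap, the targeted gene, was covered by 12, 12 and 3 reads in control and by 10, 21 and 14 reads in the other group (log2 fold change 0.81, SE 0.52, edgeR adjusted p = 0.929). It was not lower there, so the second group is called the libraries labelled ERMAP shRNA. Library totals ran from 13447021 to 16602734 counts, and the low-count filter kept 12491 genes. Control library 1 had 3.69% of its counts on mitochondrial genes, against 1.71% to 2.18% in the other libraries. Of 10 macrophage markers 9 passed the filter, with Mertk at 0 in every library, and their summed level was 7341 to 7617 CPM (counts scaled to library size) in control and 7544 to 7695 CPM in the labelled group. Summed markers of dendritic cells reached at most 2.69 CPM in any library, those of B cells 0.399 CPM and those of T cells 0.266 CPM, and the 4 neutrophil markers were at 0.

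The proteasome is the protease that degrades proteins tagged with ubiquitin. Its core is a barrel of alpha and beta rings in which only 3 kinds of beta subunit cut peptide bonds, and a regulatory particle at its ends binds ubiquitin, unfolds the substrate with ATPases and feeds it in. In cells exposed to interferon, and at rest in many immune cells, newly built cores carry Psmb8, Psmb9 and Psmb10 in place of Psmb5, Psmb6 and Psmb7. The PA28 activator made of Psme1 and Psme2 can also cap the core, and in antigen-presenting cells such as macrophages these inducible parts shape the peptides that the TAP transporter delivers to MHC class I molecules.

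Psme1 was the only 1 of the 38 members that passed the test, and it rose by 0.56 on the log2 scale in the libraries labelled ERMAP shRNA. The 3 inducible catalytic subunits had values of like size, between 0.49 and 0.65, with more spread between libraries, and did not pass the test, while their constitutive partners lay between -0.00 and 0.09. Psme2, the partner of Psme1, was at 0.43 and did not pass either. The remaining core and regulatory particle subunits all lay between -0.20 and 0.20. All log2 fold changes are of the labelled group over control.

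All 38 members passed the filter. With edgeR's quasi-likelihood test and Benjamini-Hochberg adjustment over all tested genes, 1 member was called higher at an adjusted p under 0.05, and 0 were called lower. Over all tested genes, 1.01% were called higher and 0.136% lower. Before adjustment, a p under 0.05 was reached by 4 members in the upward direction (Psmb8, Psmb9, Psmb10 and Psme1) and by 0 downward, beside 3.71% and 3.04% of all genes. With DESeq2, 3 members were called higher (Psme1, Psmb8 and Psmb9) and 0 lower, against 1.62% higher and 0.568% lower over all genes. With limma on log2(FPKM + 1), 2 were called higher (Psme1 and Psmb9) and 0 lower, against 0.993% and 0.144%. In 10 members every labelled library had a higher FPKM (read count per kilobase of gene length, scaled to library size) than every control library, and in 0 members every one was lower. This pattern held for 7.98% of all genes in the upward direction and for 6.19% in the downward direction. The log2 fold change was above 0 in 30 members, or 78.9%, where 48.3% of all tested genes were above 0, and in 26 to 31 members over the alternative fits. The median was 0.06 for the members and -0.0073 for all tested genes. Since the RNA is from bulk cells, a change in the share of cells in some state and a change in RNA per cell cannot be told apart in any of these values.

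**Figure D1:**
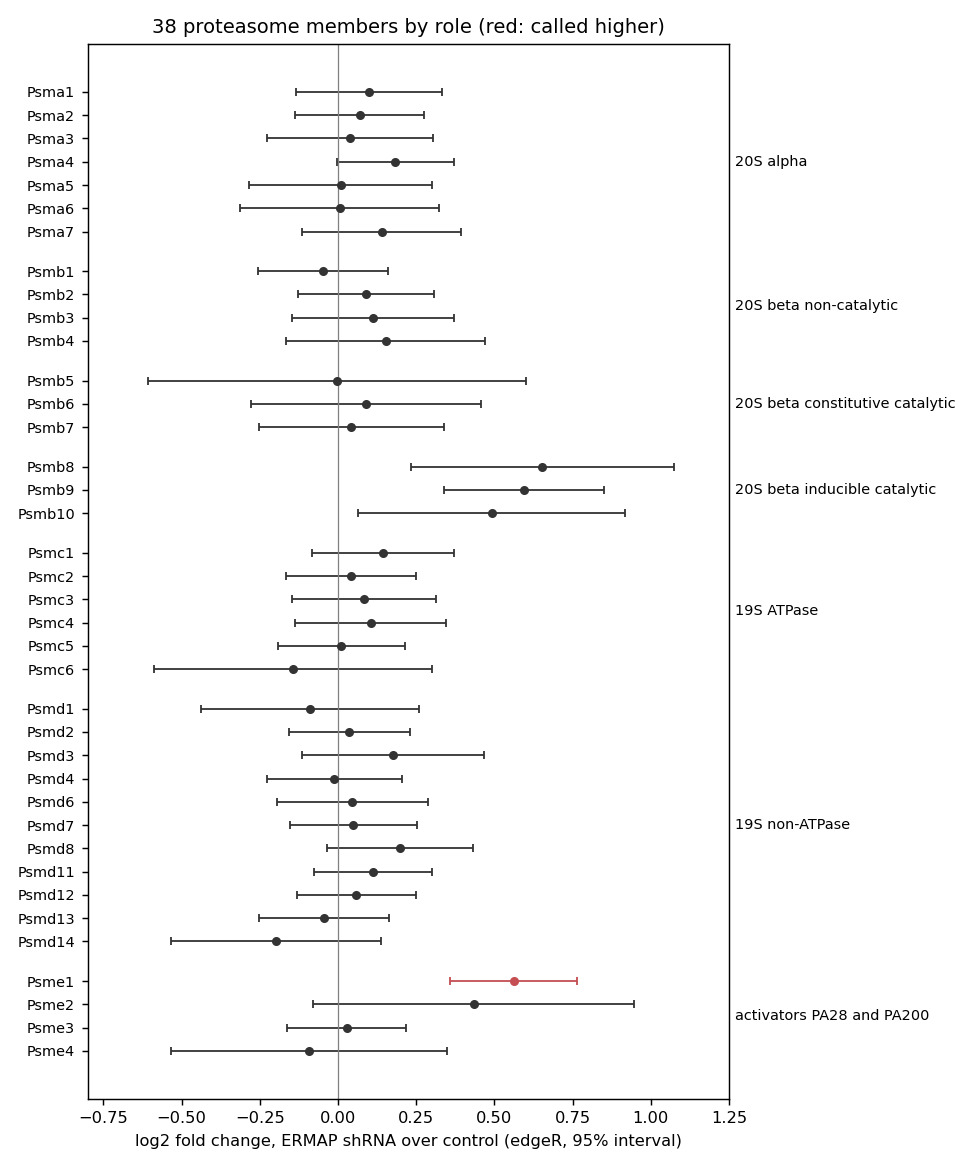
The plot gives the edgeR log2 fold change (x axis) of each of the 38 members, ordered by role, with its 95% interval as a bar. Psme1 at 0.56 is the called member, and Psmb8, Psmb9 and Psmb10 stand beside it at 0.49 to 0.65. Psme2 is at 0.43 with a wide interval, and the remaining core and regulatory particle subunits lie between -0.20 and 0.20.

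To show the bases near the start sites of these genes, promoter windows from 250 bases before to 50 bases after each start were taken from RefSeq (GRCm38.p6, the mm10 assembly), where 32 members had at least 1 window and 35 windows in all. Both strands were searched for 4 motifs: an interferon-stimulated response element (GAAA, any 2 bases, GAAA), an interferon-gamma activated site, or GAS element (TTCNNNGAA), an antioxidant response element (TGACNNNGC) and a kappaB site (GGGANTTCC). These words are short, and a match describes letters only. The 30-base sites shown are those of Psme1 and Psmb8, which are interferon-related members, of 3 members with the same words, and of the constitutive subunits Psmb5 and Psmb6. Capitals mark the motif, and each is written 5′ to 3′ along the gene's strand.
Psme1, response element, chr14:55578493-55578522, plus strand: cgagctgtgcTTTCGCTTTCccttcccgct
Psmb3, response element, chr11:97703261-97703290, plus strand: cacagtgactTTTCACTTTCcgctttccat
Psmd4, response element, chr3:95042675-95042704, minus strand: ataaccaaccTTTCCATTTCtgtggcgcct
Psmb8, GAS, chr17:34198088-34198117, plus strand: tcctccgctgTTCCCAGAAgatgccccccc
Psmd2, GAS, chr16:20651646-20651675, plus strand: gcgcgtggccTTCTGGGAAaaggggcggtg
Psmb5, antioxidant element, chr14:54618023-54618052, minus strand: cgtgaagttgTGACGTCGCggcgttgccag
Psmb6, antioxidant element, chr11:70525338-70525367, plus strand: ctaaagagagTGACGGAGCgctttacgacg
The response element stood in 3 member windows (8.57%) and in 3.44% of all 32851 promoter windows. Its match in Psme1 lay 9 to 18 bases after the start, on the reverse strand of the window. Psmb3 and Psmd4, which hold the same letters, had log2 fold changes of 0.11 and -0.01. GAS letters stood in 2 member windows (5.71%) and in 8.3% of all windows, and the antioxidant element in 5 (14.3%) and in 12.4%. The kappaB letters stood in 0 member windows and in 1.68% of all windows. Psmb9, Psmb10 and Psme2, which are also interferon-related members, had windows but no match to any of the 4 motifs. No window was found here for Psmb1, Psmb2, Psmb7, Psmc3, Psmd3 and Psmd7. The starts used for windows are those of RefSeq. For Psme1 and Psmb8 they lie inside the gene spans given below, which are those of the count table.

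Psmb8, the inducible subunit with the chymotrypsin-like site, lies on the plus strand of chromosome 17 in mm10, from 34197721 to 34201454. It had 13.1, 20.9 and 17.0 FPKM in control libraries 1, 2 and 3, and 29.99, 22.8 and 27.6 FPKM in labelled libraries 1, 2 and 3. The groups did not overlap, though labelled library 2 stood only just above control library 2. Means were 17.0 ± 3.86 and 26.8 ± 3.64 FPKM (SD, n = 3 each). In edgeR the difference was 0.65 on the log2 scale (SE 0.18, interval from 0.23 to 1.07), with an adjusted p of 0.276. The adjusted p was 0.0459 with DESeq2, 0.0247 with edgeR without control library 1, and 0.00843 with edgeR and offsets for GC content. It stayed over 0.05 with limma on log2(FPKM + 1) (0.312) and when any other library was left out (0.139 to 0.905).

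Psmb9, the inducible subunit that takes the caspase-like position, is on the minus strand of the same chromosome, from 34181988 to 34187764. Its levels were 5.05, 5.58 and 5.31 FPKM in control and 8.32, 7.59 and 8.26 FPKM in the labelled group. Both groups were tight and well apart, with means of 5.32 ± 0.264 and 8.05 ± 0.404 FPKM (SD, n = 3 each). At 0.59 (SE 0.11, 95% interval 0.34 to 0.85) the log2 fold change had an edgeR adjusted p of 0.0548, just outside the threshold. It fell inside the threshold with DESeq2 (0.000861), with limma on log2(FPKM + 1) (0.0487) and on log2(FPKM + 0.1) (0.0482), with GC offsets (0.00598), and without control library 1 (0.0011). It stayed outside with limma without the filter (0.111) and when any other library was left out (0.139 to 0.372). Psmb9 shares 212 bases of its locus with Tap1 on the opposite strand, and the strand setting of the counts is not given in the sources used here.

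Psmb10, the inducible subunit with the trypsin-like site, lies on the minus strand of chromosome 8, from 105935735 to 105938444. Control libraries had 17.2, 27.7 and 27.0 FPKM and labelled libraries 36.0, 30.4 and 35.05 FPKM. The groups did not overlap, but control library 1 stood far below the other controls. Means were 24.0 ± 5.86 and 33.8 ± 3.02 FPKM (SD, n = 3 each), with an edgeR log2 fold change of 0.49 (SE 0.18, interval from 0.06 to 0.92) and an adjusted p of 0.573. Without control library 1 it was 0.30 (adjusted p = 0.0532), and with GC offsets it was 0.44 (adjusted p = 0.00519). Its adjusted p was 0.366 with DESeq2 and 0.590 with limma on log2(FPKM + 1). When any other library was left out of the edgeR fit it was 0.463 to 0.9997.

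The constitutive partners showed no such separation. Psmb5, the standard chymotrypsin-like subunit, is on chromosome 14 (54614119 to 54618022, minus strand) and had 44.2, 89.6 and 82.8 FPKM in control and 79.0, 57.1 and 80.8 FPKM in the labelled group. Psmb6, the standard caspase-like subunit, is on chromosome 11 (70525367 to 70527858, plus strand) and had 44.1, 66.3 and 63.7 FPKM against 65.1, 56.4 and 64.2 FPKM. Psmb7, the standard trypsin-like subunit, is on chromosome 2 (38588036 to 38644087, minus strand) and had 26.8, 34.6 and 30.8 FPKM against 35.2, 28.6 and 31.4 FPKM. In all of these control library 1 was the lowest control and labelled library 2 the lowest labelled library, and the groups overlapped. Psmb5 had the widest spread, with means of 72.2 ± 24.5 and 72.3 ± 13.2 FPKM (SD, n = 3 each). Log2 fold changes were -0.00 for Psmb5 (95% interval -0.61 to 0.60, edgeR adjusted p = 0.998), 0.09 for Psmb6 (-0.28 to 0.46, 0.952) and 0.04 for Psmb7 (-0.25 to 0.34, 0.964). The interval of Psmb5 takes in the 0.59 seen for Psmb9, so a change of that size was not detectable for it here. It ends just short of the 0.65 seen for its own partner Psmb8.

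**Figure D2:**
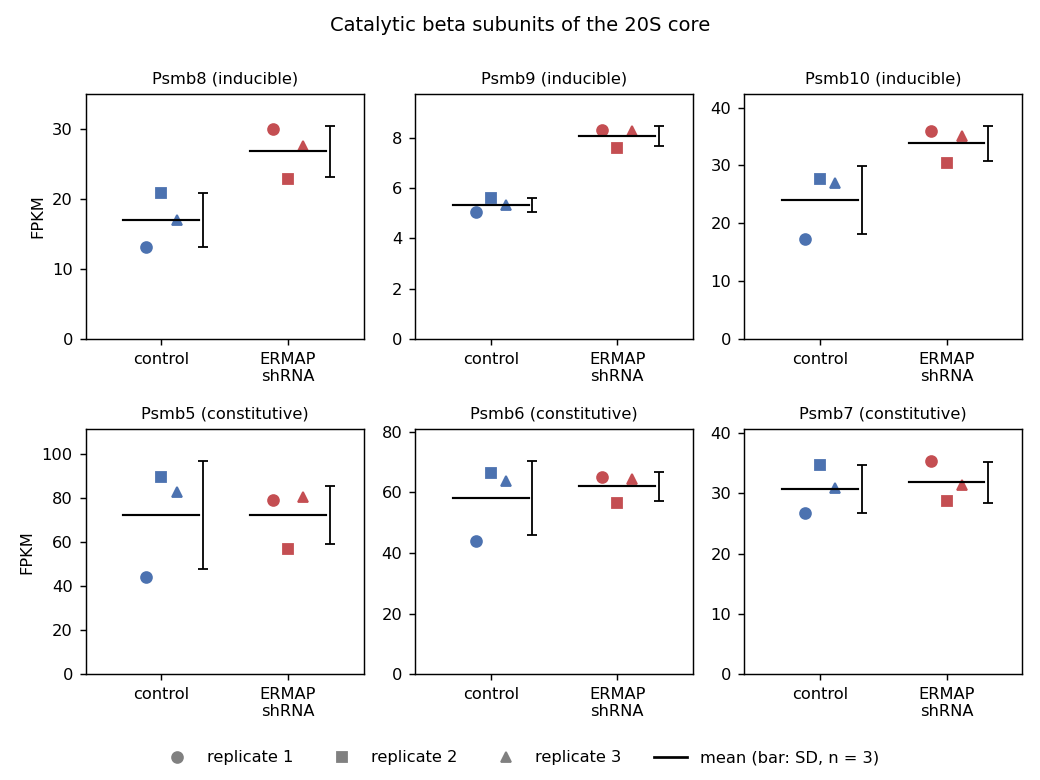
Each panel plots the deposited FPKM (y axis) of 1 catalytic subunit in the 3 control and the 3 labelled libraries, with the mean as a line and the SD (n = 3) as a bar. The groups are apart for Psmb8, Psmb9 and Psmb10 and overlap for Psmb5, Psmb6 and Psmb7.

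A ratio within a library does not depend on how libraries are scaled. The ratio of Psmb8 to Psmb5 FPKM was 0.297, 0.233 and 0.205 in control and 0.380, 0.400 and 0.342 in the labelled group. For Psmb9 to Psmb6 it was 0.115, 0.0842 and 0.0833 against 0.128, 0.134 and 0.129, and for Psmb10 to Psmb7 0.643, 0.800 and 0.877 against 1.02, 1.06 and 1.12. The groups did not overlap in any of the 3 ratios. Psmb10 passed its partner's level per length in every labelled library and in 0 control libraries. That crossing depends on the gene lengths used, 1705 bases for Psmb10 and 3421 bases for Psmb7. In labelled libraries 1, 2 and 3, Psmb10 had 829, 781 and 902 counts and Psmb7 had 1628, 1477 and 1621. Differences in mean log2 ratio were 0.62 (SE 0.17), 0.49 (SE 0.15) and 0.47 (SE 0.14), in the order in which the ratios are given. Each had a two-sided exact permutation p of 0.1, which is the smallest that 3 against 3 libraries allow, and 0.1 after Benjamini-Hochberg adjustment over the 3 ratios, so the design cannot reach 0.05. A ratio shows that the members of a pair changed unequally, not which of them moved. It can still carry differences between libraries by base composition, and no GC offset was applied to the ratios. GC content was 58.3% for Psmb10 and 43.1% for Psmb7, and the difference of that pair was 0.35 without control library 1.

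The share of the summed FPKM of all 6 catalytic subunits that came from the inducible 3 was 23.5%, 22.1% and 21.7% in control libraries and 29.3%, 29.95% and 28.7% in labelled libraries. Control libraries lay within a narrow band, and so did labelled libraries, with no overlap. Group means were 22.5% ± 0.940 and 29.3% ± 0.639 (SD, n = 3 each). The summed FPKM of the inducible subunits was 35.4, 54.1 and 49.3 in control and 74.3, 60.8 and 70.9 in the labelled group. For the constitutive subunits the sum was 115, 191 and 177 against 179, 142 and 176, where the groups overlapped. These shares count RNA and not assembled proteasomes.

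**Figure D3:**
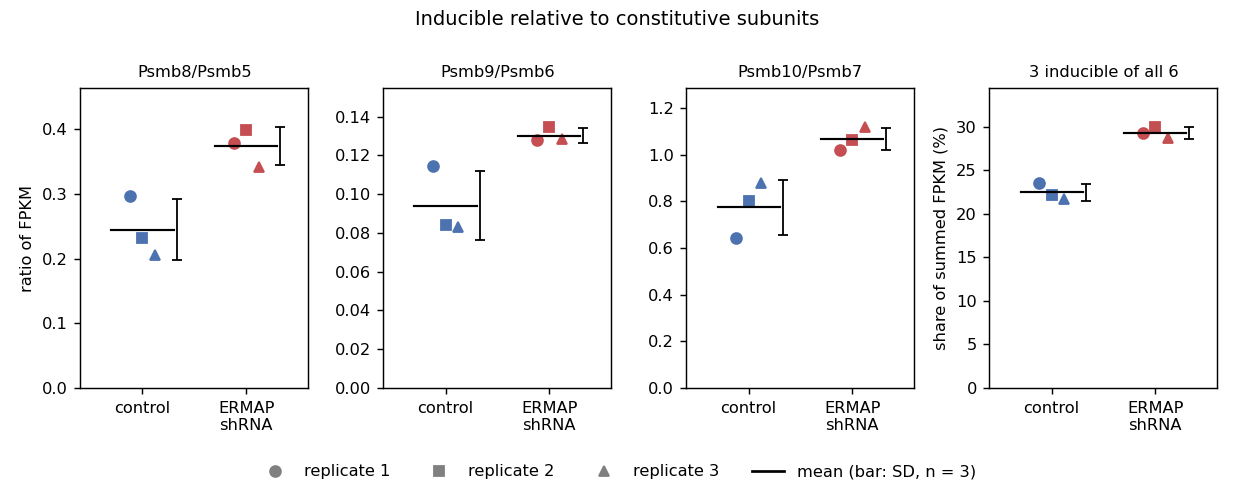
The first 3 panels plot the FPKM ratio of each inducible subunit to its constitutive partner per library, and the last plots the inducible share (%) of the summed FPKM of the 6 catalytic subunits, with the mean as a line and the SD (n = 3) as a bar. In every panel the labelled libraries lie above the controls, with a mean share of 29.3% against 22.5%.

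Of the PA28 subunits, Psme1, the alpha subunit of the interferon-inducible cap, rose. It lies on the plus strand of chromosome 14, from 55578123 to 55581529, and had 39.5, 41.9 and 38.4 FPKM in control and 60.3, 56.9 and 60.3 FPKM in the labelled group. All labelled libraries were well above all controls, at means of 40.0 ± 1.81 and 59.2 ± 1.98 FPKM (SD, n = 3 each). Its log2 fold change of 0.56 had an SE of 0.09, an interval from 0.36 to 0.76 and an edgeR adjusted p of 0.0244. The size moved little, but the call was lost when any library other than control library 1 was left out (adjusted p from 0.0585 without control library 2 to 0.219 without labelled library 3), and in limma on log2(FPKM + 1) with no filter (0.0703).

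Psme2, the beta subunit of the same cap, is a neighbour on the minus strand (55587441 to 55591113). It had 15.0, 22.9 and 23.3 FPKM in control and 30.8, 31.7 and 20.4 FPKM in the labelled group. Labelled library 3 fell within the controls and the groups overlapped, with a log2 fold change of 0.43 (SE 0.22, 95% interval -0.08 to 0.95, edgeR adjusted p = 0.861). Without control library 1 it was 0.25. A near-identical gene on chromosome 11, Psme2b, took 97% as many counts as Psme2 itself, and the transcripts of both matched at 99.37% of 794 aligned bases. Over 717 aligned coding positions only 5 differed, so few positions tell reads of the pair apart. A 90-base stretch is shown (bases 454 to 543 of the coding sequence of Psme2, from GENCODE vM21 transcripts). It was chosen as the stretch with the most differences, and capitals mark the 3 positions that differ.
Psme2: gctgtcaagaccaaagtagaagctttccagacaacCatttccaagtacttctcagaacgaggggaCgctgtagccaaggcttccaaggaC
Psme2b: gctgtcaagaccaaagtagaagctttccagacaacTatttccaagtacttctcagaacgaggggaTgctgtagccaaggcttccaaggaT
Psme2b had 41.7, 38.5 and 33.2 FPKM in control and 59.3, 51.5 and 71.2 FPKM in the labelled group. Its groups did not overlap (log2 fold change 0.68, SE 0.15, edgeR adjusted p = 0.125), and labelled library 3, low for Psme2, was the highest for Psme2b. Psme2b passed the threshold with DESeq2, with no filter, with GC offsets and without control library 1. When the counts of the pair were added and divided by the length of Psme2, the values were 34.8, 41.1 and 39.1 FPKM in control and 58.9, 56.1 and 54.2 FPKM in the labelled group. The sum did not overlap between groups, and its log2 fold change was 0.55 (edgeR adjusted p = 0.0482). In that fit 2 members were called higher (Psme1 and Psme2) and 0 lower, against 1.02% and 0.168% of all genes. How the counting divided reads between the pair is not given in the sources used here, so the values of Psme2 and Psme2b alone are uncertain.

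**Figure D4:**
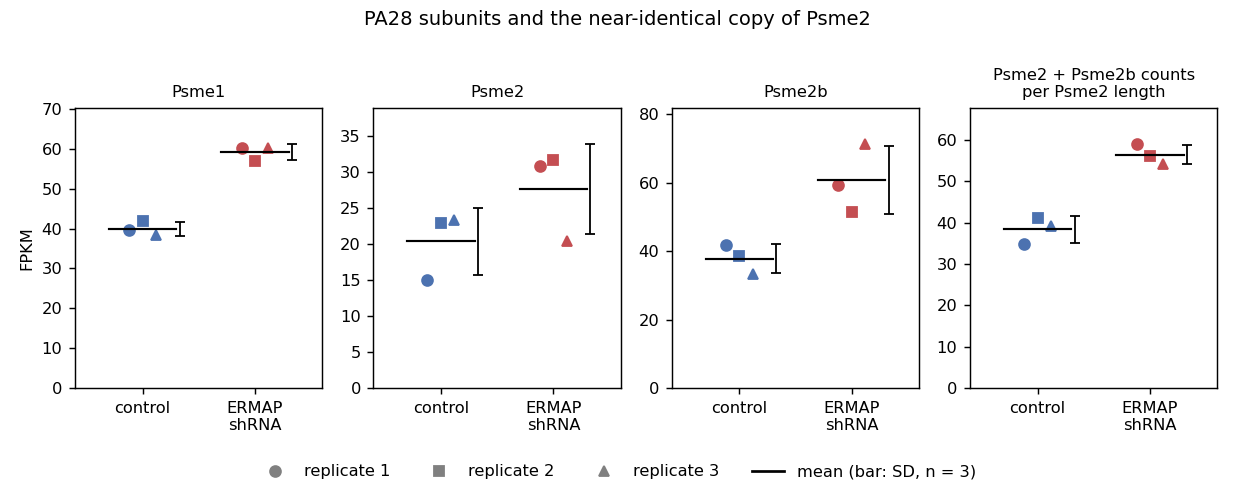
Panels plot the FPKM (y axis) of Psme1, Psme2, Psme2b and the summed Psme2 and Psme2b per library, with the mean as a line and the SD (n = 3) as a bar. Psme1 and the sum lie at 54.2 FPKM or more in every labelled library and at 41.9 FPKM or less in every control library, while Psme2 alone overlaps.

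The other activators did not follow. Psme3, which forms a nuclear cap of its own, had 80.5, 75.2 and 76.3 FPKM in control and 78.0, 79.6 and 79.8 FPKM in the labelled group (log2 fold change 0.03, 95% interval -0.16 to 0.22, edgeR adjusted p = 0.964). Psme4, the large single-chain activator PA200, had 18.9, 11.8 and 11.8 FPKM against 12.7, 14.4 and 12.9 FPKM (-0.09, -0.53 to 0.35, adjusted p = 0.953). Control library 1 stood alone as the highest library for Psme4.

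The 7 alpha subunits build the outer rings of the core, which gate the entry of substrates. In this group 0 were called, all 7 log2 fold changes were above 0, and the median was 0.07 with a range of 0.01 to 0.18. Psma4 had the largest value, with 69.8, 69.3 and 67.0 FPKM in control and 78.0, 77.7 and 79.2 FPKM in the labelled group. Its libraries were tight and did not overlap, yet the edgeR adjusted p was 0.762 (log2 fold change 0.18, SE 0.08). Psma6 had the smallest value, with 147, 118 and 104 FPKM against 123, 132 and 116 FPKM and overlapping groups (0.01). Psma5 had the highest mean control level of all members, at 143 FPKM, while Psmb9 had the lowest, at 5.32 FPKM.

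The 4 non-catalytic beta subunits complete the inner rings. Again 0 were called, with a median log2 fold change of 0.10 and a range of -0.05 to 0.15. Psmb4 gave the upper end, with 107, 157 and 134 FPKM in control and 154, 144 and 146 FPKM in the labelled group. Psmb1 gave the lower end, with 40.5, 42.7 and 38.4 FPKM against 41.0, 37.6 and 39.5 FPKM. The groups overlapped in both, and the 0.15 of Psmb4 was 0.017 without control library 1 and 0.28 without control library 2.

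The 6 ATPases, Psmc1 to Psmc6, form the ring that unfolds substrates and opens the gate. Among them 0 were called, with a median of 0.06 and a range of -0.14 to 0.14. Psmc1 had 73.5, 88.5 and 86.7 FPKM in control and 92.5, 91.7 and 91.8 FPKM in the labelled group, where every labelled library stood above every control; its log2 fold change of 0.14 was 0.06 without control library 1. Psmc6 had 44.2, 28.6 and 28.2 FPKM against 27.9, 34.9 and 28.9 FPKM, and its lower mean in the labelled group came with a single high control, library 1.

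The 11 non-ATPase subunits include the scaffolds Psmd1 and Psmd2, the ubiquitin receptor Psmd4 and the deubiquitinase Psmd14. Here too 0 were called, with a median of 0.05 and a range of -0.20 to 0.20. Psmd8, a lid subunit, had 53.6, 66.0 and 58.8 FPKM in control and 70.3, 68.6 and 66.6 FPKM in the labelled group (log2 fold change 0.20, edgeR adjusted p = 0.857). Psmd14, which removes ubiquitin chains from arriving substrates, had 58.8, 42.7 and 41.2 FPKM against 41.4, 42.3 and 41.0 FPKM (-0.20, adjusted p = 0.937). Apart from control library 1, all its libraries were nearly level. Without that library the value was -0.02 for Psmd14 and 0.13 for Psmd8. Psmd11 and Psmd12, both lid subunits, had groups that did not overlap, with log2 fold changes of 0.11 and 0.06.

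Control library 1 differed from the other controls along base composition. Over the 38 members, the log2 FPKM of control library 1 minus the mean of the other controls ran from -0.96 for Psmb5 to 0.68 for Psme4. Across the members it had a Pearson correlation of -0.75 and a Spearman correlation of -0.75 with the GC content of the transcripts, a description over genes that share the same libraries. Labelled library 2 against the other labelled libraries gave -0.53 and -0.57. The inducible subunits had GC contents of 54.3% to 58.3% and the constitutive subunits 43.1% to 57.0%, within 40.6% to 58.3% for all members. By this difference control library 1 was low for Psmb10 (-0.67) and Psmb8 (-0.52), and near the other controls for Psmb9 (-0.11) and Psme1 (-0.02). With an offset for GC content in each library, 4 members were called higher (Psme1, Psmb8, Psmb9 and Psmb10) and 0 lower, against 2.46% and 1.33% of all genes. Without control library 1, 3 were called higher (Psme1, Psmb8 and Psmb9) and 0 lower, against 2.67% and 2.19%.

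**Figure D5:**
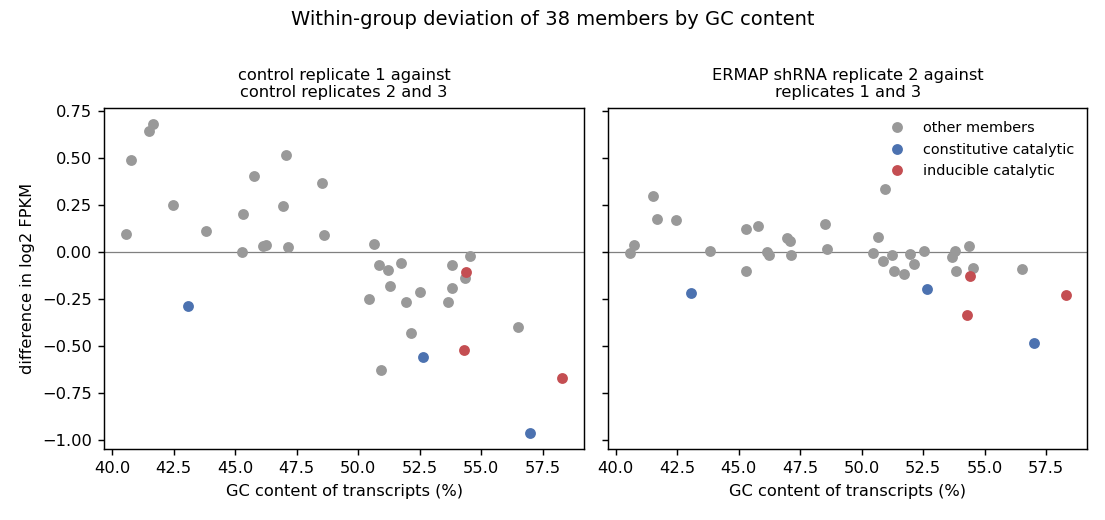
For each of the 38 members the plot sets GC content of the transcripts (x axis, %) against the difference in log2 FPKM (y axis) of 1 library from the other libraries of its group. Differences of control library 1 fall from 0.68 to -0.96 as GC content rises (Pearson -0.75), and those of labelled library 2 fall less steeply (-0.53).

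Other genes of the pathway were taken from lists by role, of which 57 were in the table and 56 were tested. Here 1 was called higher, Tap1 (1.79% of those tested, near the 1.01% of all genes), and 0 were called lower. Of 10 genes for peptide trimming and transport 1 was called, with a median log2 fold change of 0.15. Tap1, a subunit of the peptide transporter encoded between Psmb9 and Psmb8 on chromosome 17, had 3.70, 5.80 and 4.98 FPKM in control and 9.70, 9.08 and 10.5 FPKM in the labelled group. Its groups stood far apart, and it rose by 1.01 on the log2 scale (SE 0.17, edgeR adjusted p = 0.034). That call was lost without control library 3 (0.161) and without labelled library 1 (0.172), 2 (0.129) or 3 (0.216). With limma it was also lost on log2(FPKM + 0.1) (0.0559) and with no filter (0.144). Tap2, the other transporter subunit, lies next to Psmb8 and had mean levels of 4.27 and 6.41 FPKM (0.58, adjusted p = 0.443).

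Among 8 assembly factors, 16 bound regulators and shuttle factors, 5 genes of the p97 unfoldase and 6 of ubiquitin supply, 0 were called in either direction, with medians of 0.02, -0.02, -0.07 and 0.12. The most abundant member of each had these means in control and labelled libraries: 47.5 and 52.8 FPKM for the assembly factor Psmg4, 65.1 and 62.5 for the shuttle factor Rad23b, 89.4 and 83.0 for the unfoldase Vcp, and 364 and 304 for Rps27a, a source of ubiquitin. Rps27a varied widely within both groups (SD 121 and 83.6 FPKM), and its log2 fold change of -0.26 was -0.51 without control library 1 and -0.06 without control library 2. Of 9 genes for transcription of subunits and its processing 0 were called, with a median of 0.13. Nfe2l2, a stress-response activator of subunit genes, had 39.5 ± 3.85 and 37.3 ± 0.786 FPKM (SD, n = 3 each). In the same list, and picked after its values were seen, Nlrc5, an activator of MHC class I genes, had a log2 fold change of 0.60 (edgeR adjusted p = 0.0664).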

How the data were processed

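The submitters' processing notes name HISAT2 and mm10. For the read counter, strand setting, annotation and versions, nothing is stated (not given in the sources used here). Per gene and library, the authors deposited whole-number counts and FPKM values. A check showed each FPKM to be the count over gene length, scaled by a library constant that differs from the summed count by -0.154% to 1.20%. Column names give a group and a number, which could not be tied to single samples. The numbers are used as library names.

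Counts from 6 libraries (13447021 to 16602734 each) were tested with edgeR 4.0.16 (limma 3.58.1, R 4.3.3): TMM factors, filterByExpr at a minimum count of 10, robust quasi-likelihood, group as the only term and Benjamini-Hochberg adjustment over 12491 genes. A call is an adjusted p under 0.05. SE and 95% intervals are from that fit. Ratios were tested with exact permutation tests in scipy 1.17.1. Alternatives were other scaling factors, DESeq2 1.42.0, no filter, limma-trend on FPKM, GC offsets, a replicate block and the omission of each library in turn. Near-identical copies (BLAST 2.17.0, at least 95% identity over 200 bases) were added to their members as an alternative chosen after the data were seen.

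The members, lists and tests were chosen with earlier results of these data known. Values in every library are given for the catalytic, PA28 and PA200 subunits, for called genes, and for the highest and lowest log2 fold change in each other role. In the other lists the called genes, or else the most abundant, are named.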

Additional observations from a re-analysis of the deposited data

How the results depend on the processing

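The count of members called lower was 0 in every alternative run, and the median of the members stayed between 0.05 and 0.09 when a library was left out. The count called higher was 1 with the other scaling factors and with no filter, 3 with DESeq2, 2 with limma on log2(FPKM + 1) and on log2(FPKM + 0.1), 0 with limma without the filter, 4 with GC offsets, 2 with copies added, and 0 to 3 when each library was left out. With 2 libraries in a group, fewer samples are tested. The share of all genes called was not taken for the other scaling factors, for edgeR with no filter or for limma on log2(FPKM + 0.1). Nor was it taken for limma without the filter or for the omission of a library other than control library 1. The counts of these fits are therefore not a result about the members. Leaving out each library gave log2 ratio differences of 0.50 to 0.77 for Psmb8 to Psmb5, 0.41 to 0.64 for Psmb9 to Psmb6 and 0.35 to 0.57 for Psmb10 to Psmb7, and a difference in inducible share of 6.48 to 7.37 percentage points. That difference, 6.84 as reported, was 7.92 with counts not divided by length and 5.37 with copies added, by construction of the denominators.

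Several members near 0 changed sign, and the cause was not tested. Psmb5 was 0.049 with limma on log2(FPKM + 1), with or without the filter, and 0.051 with limma on log2(FPKM + 0.1) and with copies added, Psma6 was -0.0025 with upper-quartile scaling, Psmb1 was 0.0045 with GC offsets and Psme4 was 0.054. When each library was left out, Psmb5 ran from -0.26 to 0.18, Psmb6 from -0.078 to 0.19, Psmb7 from -0.052 to 0.13, Psme4 from -0.22 to 0.17, Psma6 from -0.10 to 0.15 and Psmc6 from -0.26 to 0.10.

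Whether libraries of the same number were paired is not known, as the numbers could not be tied to single samples. Deviations from group means correlated at -0.13, -0.28 and 0.18 between libraries of the same number, over 12491 genes. The largest correlation, 0.34, was between control library 1 and labelled library 2. Deviations within a group depend on one another, so these values cannot decide the pairing. With a replicate block, 0 members were called (0.648% of all genes higher and 0.0240% lower), Psme1 and Tap1 had adjusted p of 0.204 and 0.105, and Psmb5 was 0.040. With the replicate block and GC offsets, 3 were called higher (Psme1, Psmb9 and Psmb10) and 0 lower, against 1.67% and 0.673% of all genes, Psmb1 was 0.011 and Psme4 was 0.056.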

Other observations

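Near-identical copies drew counts for some members in every group. Leaving aside genes that overlap a member's own locus, 11 of the 38 members had at least 1 other gene matching at 95% identity or more over at least 200 bases, 18 copies in all, and 5 had such a copy with at least 5% of the member's own counts. A further 4 members matched an overlapping gene at 100%, on either strand: Psmb7 with Nek6, Psmb9 with Tap1, Psmd1 with Gm21972 and Psmd13 with Sirt3. The strand of each match was not kept. Psmb9 and Tap1 lie on opposite strands, so their transcripts are complementary there and not identical. These overlapping genes held 62.7%, 163%, 0% and 6.66% as many counts as the member, and their counts were not added in any alternative. Gm13835 matched Psma3 at 100% over 685 bases and held 59.5% as many counts. Gm3375, a processed pseudogene on chromosome 7, matched Psmb5 at 98.87% over 796 bases and held 93.8% as many counts. Over 793 aligned coding positions 9 differed. The pair is shown over bases 376 to 465 of the coding sequence of Psmb5 (GENCODE vM21 transcripts). That stretch was likewise chosen for the most differences, and capitals mark the 3 positions that differ.
Psmb5: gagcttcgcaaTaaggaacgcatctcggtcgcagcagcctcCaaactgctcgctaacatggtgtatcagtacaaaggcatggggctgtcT
Gm3375: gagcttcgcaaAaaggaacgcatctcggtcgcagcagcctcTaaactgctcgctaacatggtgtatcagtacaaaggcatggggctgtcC
With the counts of Gm3375 added, Psmb5 had 85.8, 171 and 155 FPKM in control libraries 1, 2 and 3 and 155, 115 and 158 FPKM in the labelled libraries. The groups still overlapped, and control library 1 was still the lowest. The level of Psmb5 per length, and with it the ratio of Psmb8 to Psmb5, therefore depends on where reads of this pair were counted, while the difference in log2 ratio was 0.62 without and 0.57 with the copy.

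Genes of the other lists also had groups of libraries that did not overlap. Of the 56 tested, 13 (23.2%) were higher in every labelled library and 1 was lower. The shares over all genes were 7.98% and 6.19%. The lower gene was Akirin2, from the list for transcription of subunits (log2 fold change -0.21, edgeR adjusted p = 0.850). Tapbp, which holds MHC class I molecules at the peptide transporter, had 30.5, 46.4 and 46.8 FPKM in control and 74.5, 69.5 and 80.0 FPKM in the labelled group (log2 fold change 0.85, edgeR adjusted p = 0.0696). Irf1, an interferon-induced transcription factor, had 3.67, 5.18 and 4.42 FPKM against 5.77, 5.77 and 6.20 FPKM (0.41, adjusted p = 0.530). Tapbp and Irf1 were picked after their values were seen, and neither passed the test.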
